A study of Mus musculus with 8 samples.

Results

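The genes described are 10 interferon-stimulated antiviral effectors (Ifit1, Ifit2, Ifit3, Isg15, Mx1, Oasl1, Oasl2, Rsad2, Usp18 and Ddx58), taken by name from 49943 genes in a RefSeq table of the mouse assembly GRCm38.p6. Peaks were assigned to them when they lay within 10 kb of the gene body. By this rule 57 peaks from 8 lists fell near the members, and they merged into 15 regions of 40784 in the whole series. The names were not chosen by a threshold on measured values.

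The assay was ATAC-seq, which reads out open chromatin as the places where the enzyme Tn5 can insert adapters for sequencing. The cells were BV2, a mouse microglial line, grown alone (monoculture) or seeded onto GL261 mouse glioma cells (co-culture), in each case at 21% oxygen (normoxia) or below 0.1% oxygen (hypoxia) for 16 h. The 4 groups were monoculture in normoxia, monoculture in hypoxia, co-culture in normoxia and co-culture in hypoxia, each with 2 libraries described as biological replicates, all from the one BV2 line and without any added interferon or virus in the labels. Cells of every group were fixed with formaldehyde, for the hypoxic groups before return to air, and sorted before Tn5 treatment. The labels name a sort for CD45, a surface protein of leukocytes, or for GFP.

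Interferons released by infected or stressed cells bind receptors that activate the kinases Jak1 and Tyk2, which signal to the nucleus. A complex that contains Irf9 then binds the interferon-stimulated response element, a repeat of GAAA letters near the start of many antiviral genes. In microglia, the resident macrophages of the brain, this set of genes marks the response to virus, to cytosolic nucleic acid and to interferon itself.

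Reference sequence around the starts is shown first, so that the letters can be read beside the measured peaks. RefSeq (GRCm38.p6) gave 9 windows, each from 250 bases before a start to 50 after it, for 8 of the 10 members. Ifit2 had 2 windows, and the table used held none for Mx1 and Usp18. The response element was searched as GAAANNGAA on both strands, and every match stands in capitals, those on the other strand reading as the reverse complement. The first Ifit2 window (chr19:34550444-34550743, plus strand) is shown as the start with a peak in every library, Ifit3 (chr19:34583279-34583578, plus strand) as one with peaks in some, and Ifit1 (chr19:34640639-34640938, plus strand), Isg15 (chr4:156200769-156201068, minus strand), Rsad2 (chr12:26456403-26456702, minus strand) and Ddx58 (chr4:40239776-40240075, minus strand) as the remaining windows with a match.
Ifit2: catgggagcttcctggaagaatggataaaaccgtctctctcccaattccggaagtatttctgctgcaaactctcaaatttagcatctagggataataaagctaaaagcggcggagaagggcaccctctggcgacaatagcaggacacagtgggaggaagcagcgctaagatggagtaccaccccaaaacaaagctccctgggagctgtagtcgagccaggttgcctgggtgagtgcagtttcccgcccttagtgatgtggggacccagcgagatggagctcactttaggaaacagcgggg
Ifit3: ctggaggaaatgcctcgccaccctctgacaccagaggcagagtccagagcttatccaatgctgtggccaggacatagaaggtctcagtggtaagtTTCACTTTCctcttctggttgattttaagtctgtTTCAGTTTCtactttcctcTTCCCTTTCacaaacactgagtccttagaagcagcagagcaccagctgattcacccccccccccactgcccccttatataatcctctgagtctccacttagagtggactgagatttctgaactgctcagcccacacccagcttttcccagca
Ifit1: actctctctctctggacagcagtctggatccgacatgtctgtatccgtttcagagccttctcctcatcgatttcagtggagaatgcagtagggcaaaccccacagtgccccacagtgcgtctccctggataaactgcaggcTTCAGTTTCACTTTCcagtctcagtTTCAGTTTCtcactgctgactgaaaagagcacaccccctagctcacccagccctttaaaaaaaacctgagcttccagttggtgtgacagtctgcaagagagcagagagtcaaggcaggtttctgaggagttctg
Isg15: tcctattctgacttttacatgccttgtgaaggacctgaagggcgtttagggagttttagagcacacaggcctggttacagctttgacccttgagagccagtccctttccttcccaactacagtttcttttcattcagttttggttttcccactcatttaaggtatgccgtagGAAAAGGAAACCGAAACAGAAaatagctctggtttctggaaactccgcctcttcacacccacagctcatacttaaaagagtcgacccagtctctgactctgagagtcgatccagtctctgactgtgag
Rsad2: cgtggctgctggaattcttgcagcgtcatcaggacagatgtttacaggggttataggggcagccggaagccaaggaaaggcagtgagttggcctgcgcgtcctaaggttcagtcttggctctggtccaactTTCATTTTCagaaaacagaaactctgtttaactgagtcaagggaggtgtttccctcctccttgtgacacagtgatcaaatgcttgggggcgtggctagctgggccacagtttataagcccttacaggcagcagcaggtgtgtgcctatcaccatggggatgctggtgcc
Ddx58: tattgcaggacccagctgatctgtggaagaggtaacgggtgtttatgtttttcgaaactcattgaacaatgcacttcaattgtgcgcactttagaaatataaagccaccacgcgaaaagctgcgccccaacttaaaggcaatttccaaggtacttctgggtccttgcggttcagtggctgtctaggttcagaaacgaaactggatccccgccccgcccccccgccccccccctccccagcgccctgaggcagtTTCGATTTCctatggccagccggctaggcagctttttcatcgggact

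The letters GAAANNGAA were present in the windows of 5 members (Ifit1, Ifit3, Isg15, Rsad2 and Ddx58), against 8.56% of all 32851 windows of this length. Ifit1, Ifit3 and Isg15 each held 3 matches, some of them overlapping, with first bases at positions -155 to -66 from the start. Rsad2 held 1 match at position -119, and Ddx58 held 1 at position 3 past the start. Neither Ifit2 window and neither Oasl window held these letters. A peak overlapped the first Ifit2 window in 8 libraries, the Ifit3 window in 4, the Ddx58 window in 1, and the Ifit1, Isg15 and Rsad2 windows in 0. The presence of a match is a description of these letters and not of a bound factor.

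Other searched letters were spread differently. The gamma-activated sequence TTCNNNGAA was present in a window of 1 member (Ifit2) against 8.30% of all windows. The hypoxia response element, ACGTG or GCGTG, was in windows of 4 members (Ifit2, Oasl2, Rsad2 and Ddx58) against 43.8% of all. AP-1 letters, TGANTCA, were in 2 (Ifit3 and Rsad2) against 7.81%, and the PU.1 core GAGGAA was in 2 (Ifit2 and Ifit3) against 28.3%. Both strands were searched for each, and matches of different motifs may overlap.

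The 8 lists were of unequal length and depth, which bears on every presence count. They held 9910 to 13333 peaks in normoxic monoculture, 24370 to 26339 in hypoxic monoculture, 21790 to 21826 in normoxic co-culture and 21633 to 29658 in hypoxic co-culture. The background coverage recovered from the lists was 0.758 and 1.03 fragments per position in the normoxic monocultures and 1.07 to 1.45 in the other 6 libraries. Coverage and list length were both lowest in the normoxic monocultures. They did not run in strict step, since coverages of 1.03 and 1.07 went with 9910 and 21790 peaks. Absence from a list means that no signal exceeded the caller's threshold there, and does not show that the chromatin was closed. Of 16 myeloid and microglial markers, 9 and 9 had a peak within 10 kb in the normoxic monocultures and 12 to 15 in the other libraries, with Ptprc, Csf1r, Aif1, Cx3cr1, Runx1 and P2ry12 in all 8 and Sall1 in none. Of 14 glial and glioma markers, 0 had a peak in either normoxic monoculture, 2 and 3 in hypoxic monoculture, 6 and 3 in normoxic co-culture, and 8 and 6 in hypoxic co-culture. Olig2, Fabp7, Egfr, Sox9 and Ptprz1 had no peak in any library. Fewer cells with a region open and less opening per cell cannot be told apart in these bulk lists.

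More of the antiviral effectors carried a peak in every other group than in normoxic monoculture. Within 10 kb the number of the 10 genes with a peak was 3 and 4 in normoxic monoculture, 8 and 7 in hypoxic monoculture, 7 and 6 in normoxic co-culture, and 8 and 6 in hypoxic co-culture. Both normoxic monocultures lay below all other libraries, and the remaining 3 groups overlapped. The hypoxic libraries had 2.25 more member genes with a peak on average (7.25 against 5), by 4 in monoculture and 0.5 in co-culture, with a pooled SD within groups of 0.935. The co-cultures had 1.25 more (6.75 against 5.5), by 3 in normoxia and by -0.5 in hypoxia.

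In the same libraries more protein-coding genes had a peak. Of 21887 protein-coding genes, 35.8% to 42.8% had a peak within 10 kb in the normoxic monocultures and 57.5% to 64.5% in the other libraries. When each list was limited to its 9910 most significant peaks, the number of peaks in the shortest list, the member counts became 3 and 4, 5 and 2, 2 and 3, and 2 and 2 in the same group order. In these equal-number lists the oxygen difference was -0.25 and the culture difference -1.25, so both changed sign. The pooled SD within groups was 1.17 genes there, about the size of the culture difference. Over all protein-coding genes the equal-number share was 32.1% to 43.4%, with differences of -0.40 percentage points for oxygen and 6.14 for culture, against -2.5 and -12.5 points for the members. The part of list length, depth and cell mixture in the presence counts was not tested beyond this.

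**Figure D1:**
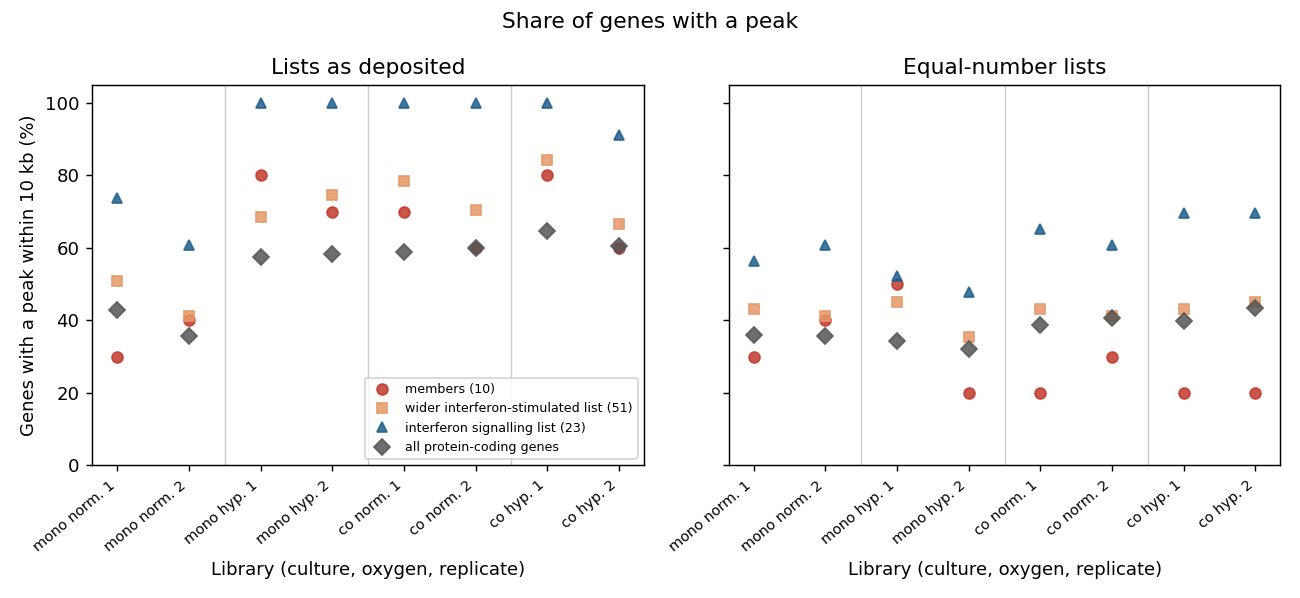
Share of genes with at least 1 peak within 10 kb (percent, vertical axis) in each of the 8 libraries, for the 10 members, the wider interferon-stimulated list, the interferon signalling list and all protein-coding genes, in lists as deposited (left) and in lists of equal number (right). Members range from 30% to 80% on the left and from 20% to 50% on the right, where the low normoxic monoculture values no longer stand apart.

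At the gene starts, peaks were fewer. The number of members with a peak region within 1 kb of a listed start (or of either end for Usp18 and Mx1) was 2 and 1 in normoxic monoculture, 4 and 4 in hypoxic monoculture, 4 and 3 in normoxic co-culture and 4 and 4 in hypoxic co-culture. These counts use merged regions. For Oasl1 the library's own peak ended more than 1 kb short of the start at 114923240 in both hypoxic monocultures (114922238 and 114922232) and in normoxic co-culture replicate 1 (114922124). Ifit2 was the 1 member with such a region in all 8 libraries, and Ifit1, Isg15, Mx1, Oasl2 and Rsad2 had none in any library. Over all 17492 protein-coding genes with a listed start the share was 28.4% and 23.4% in normoxic monoculture and 38.7% to 46.4% in the other libraries. In equal-number lists the member count at starts was 0 to 2.

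Among the 15 member regions, 3 were called in all 8 libraries (20%, against 15.6% of all regions) and 5 in 1 library (33.3%, against 26.7%). Of the 15, 10 were called in neither normoxic monoculture (66.7%, against 63.8% of all regions). Member peaks were of middling rank: the percentile within its own list, from 0 for the weakest to 100 for the strongest −log10 p, had a median of 45.9 over the 57 peaks, and 24 of them lay above the middle of their list. The summits held a median of 24 fragments, from 8 to 122. Percentiles in lists of different length describe standing within a list and show no change between lists.

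**Figure D2:**
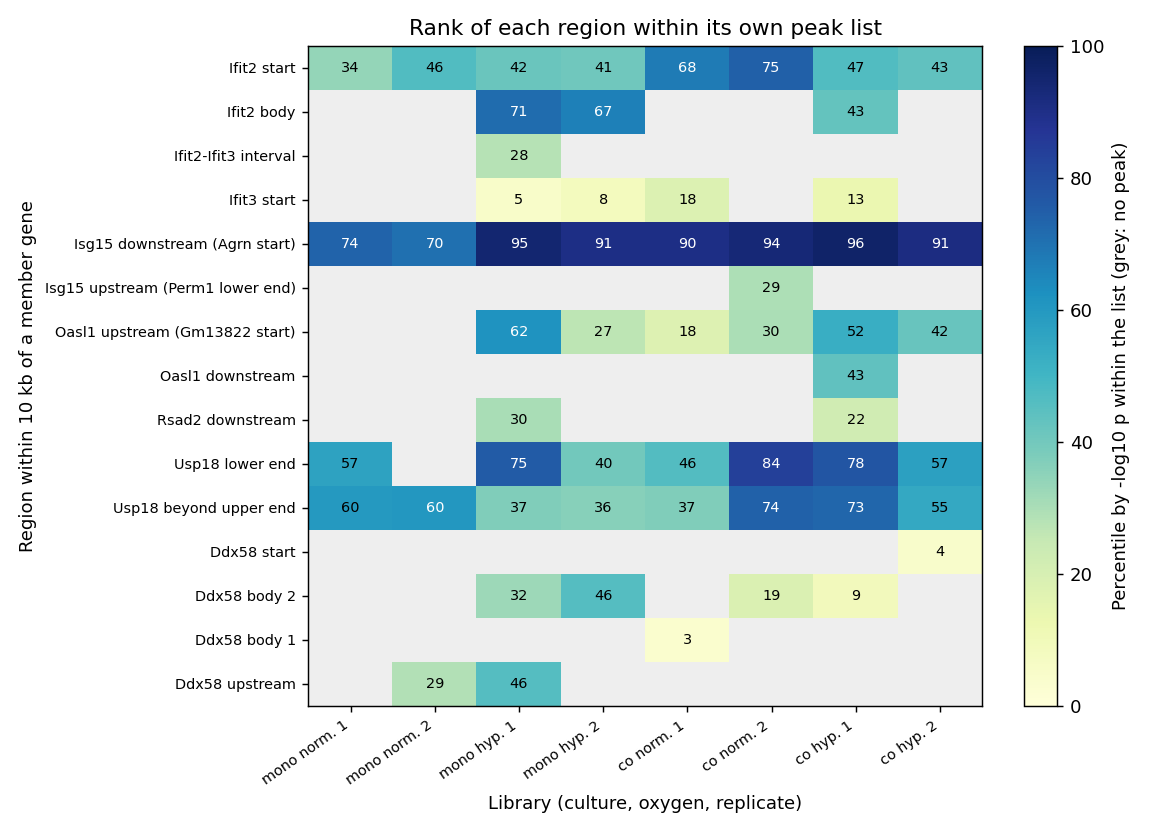
Percentile by −log10 p within its own list (colour and printed value, 0 to 100) of each of the 15 member regions (vertical axis) in each of the 8 libraries (horizontal axis), with grey where no peak was called. The Ifit2 start, the Agrn start beside Isg15 and the region beyond Usp18 are filled in all 8 libraries, while most other regions are grey in both normoxic monocultures.

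Ifit2 encodes a tetratricopeptide protein that binds viral RNA and restrains its translation. Its start region (chr19:34550467-34551145, over the lower end of the gene at 34550550 to 34576534) was called in all 8 libraries. The summit lay at -81 to -1 bases from the first start in 6 libraries, and 128 and 176 bases past it in monoculture normoxia replicate 2 and co-culture normoxia replicate 2. Summit fragments numbered 15 and 20 in normoxic monoculture, 26 and 28 in hypoxic monoculture, 39 and 40 in normoxic co-culture and 32 and 26 in hypoxic co-culture. Within-list percentiles were 33.9 and 46.5, 41.5 and 40.6, 67.8 and 74.5, and 46.8 and 43.5 in that order, each describing standing within its own list.

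Ranks that can be compared were taken over the 6375 regions called in all 8 libraries. On this scale the Ifit2 start stood at the percentiles 14.4 and 28.1 in normoxic monoculture, 9.95 and 8.46 in hypoxic monoculture, 27.6 and 36.8 in normoxic co-culture, and 11.4 and 15.8 in hypoxic co-culture. Within each culture both hypoxic libraries lay below both normoxic ones in rank. A lower rank is a lower standing among the shared regions and does not by itself show a fall in signal. The deposited fold over background in monoculture was 5.80 and 5.55 in normoxia and 6.03 and 6.03 in hypoxia. In co-culture the fold was 6.44 and 8.99 in normoxia and 6.39 and 6.47 in hypoxia. The mean rank was 11.4 in hypoxia and 26.7 in normoxia. The difference was -15.3 percentile points (-12.1 in monoculture and -18.6 in co-culture, pooled SD 6.04). The two-sided exact permutation test with labels permuted within culture gave p = 0.0556, the smallest that 36 relabellings allow, and an adjusted p of 0.233 over all 6375 regions. That smallest p with hypoxia lower was reached by 12.4% of all shared regions, and with hypoxia higher by 11.5%, so 1 member region of 3 there is no result about the set. With either hypoxic monoculture library left out, the difference was -15.6 or -14.9 points, no longer at the smallest p (exact permutation p = 0.111 in each).

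Equal-number lists rest on the same −log10 p and add no separate evidence. In them the Ifit2 start was present in all 4 normoxic libraries, one of which keeps its whole list, and in none of the 4 hypoxic ones, a loss that 0.899% of 19790 regions shared. By culture the Ifit2 start ranked 7.66 points higher in co-culture (exact permutation p = 0.111, adjusted p = 0.305), a difference that did not reach the smallest p of 0.0556. With only peaks of −log10 q of at least 5 it was 8.05 points and reached that p (exact permutation p = 0.0556). With all peaks the difference was 3.86 points without monoculture normoxia replicate 1 and 11.5 without monoculture normoxia replicate 2.

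**Figure D3:**
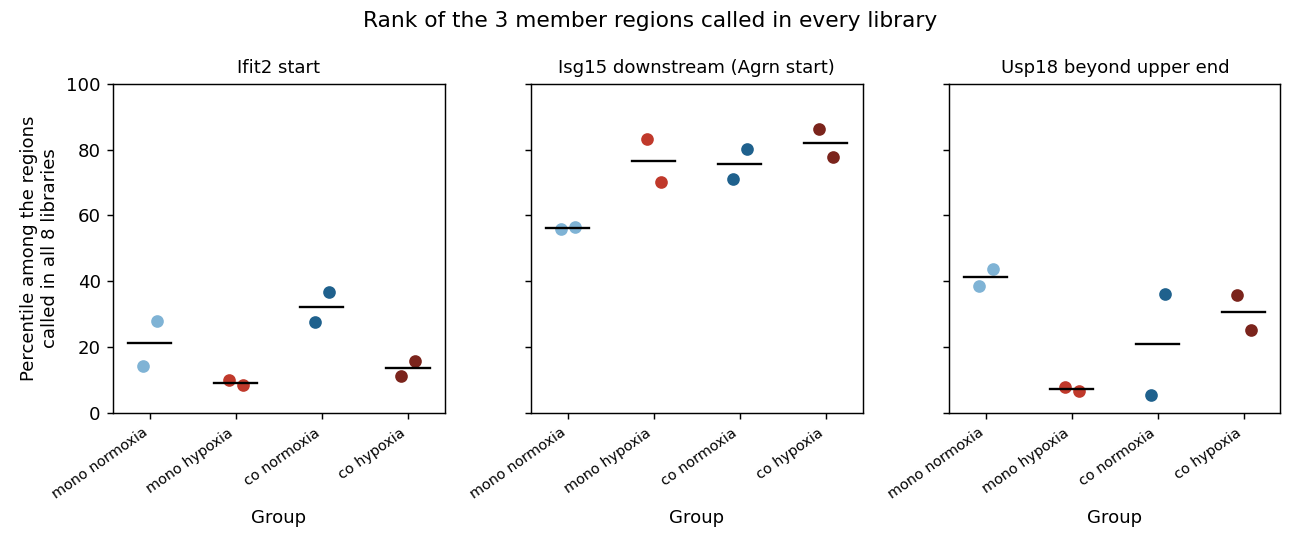
Percentile by −log10 p among the 6375 regions called in all 8 libraries (vertical axis, 0 to 100) for the 3 member regions in that set, with 1 point per library and a bar at each group mean. The hypoxic points of the Ifit2 start lie below the normoxic points of the same culture, the Agrn start beside Isg15 is lowest in normoxic monoculture, and the region beyond Usp18 is lowest in hypoxic monoculture and in 1 normoxic co-culture library.

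Farther along Ifit2, 2 regions were called in hypoxic libraries alone. The share of all regions so called was not counted. Of all regions, 17.7% were called in both hypoxic monocultures and neither normoxic one, and 26.7% in 1 library. A region inside the gene body (chr19:34570094-34570624) was called in both hypoxic monocultures at percentiles of 71.4 and 66.7, with 38 and 35 summit fragments, and in hypoxic co-culture replicate 1 at 42.6, with 22 fragments. It was absent from all 4 normoxic lists and from hypoxic co-culture replicate 2. A second region between Ifit2 and Ifit3 (chr19:34577189-34577500) was called in hypoxic monoculture replicate 1 alone, at a percentile of 27.8.

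Ifit3, a partner of Ifit1 and Ifit2 in the same protein family, carried a weak region at its start (chr19:34582920-34583612). It was called with 10 and 13 summit fragments in the hypoxic monocultures, 12 in normoxic co-culture replicate 1 and 13 in hypoxic co-culture replicate 1, and in no normoxic monoculture. Its percentiles were 4.98, 8.42, 18.1 and 13.1, all in the lowest part of their lists, and it entered no equal-number list. Summits lay at -539 and -453 bases from the start in hypoxic monoculture and at -235 and -250 bases in the 2 co-culture libraries, so the co-culture summits fell nearer the response element letters shown above.

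Ifit1, which recognises viral RNA lacking a host cap mark, had no peak within 10 kb (chr19:34640889-34650009) in any library. The nearest region lay 12090 bp away inside Ifit1bl1 (chr19:34662099-34662489) and was called in normoxic co-culture replicate 2 and both hypoxic co-cultures at percentiles of 15.5 to 33.3. Just outside the limit for Ifit3 was a region at 10245 bp (chr19:34599227-34599731), called in 3 libraries at 29.7 to 57.6. Just inside the limit was the region shared with Oasl2, at 9397 bp.

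**Figure D4:**
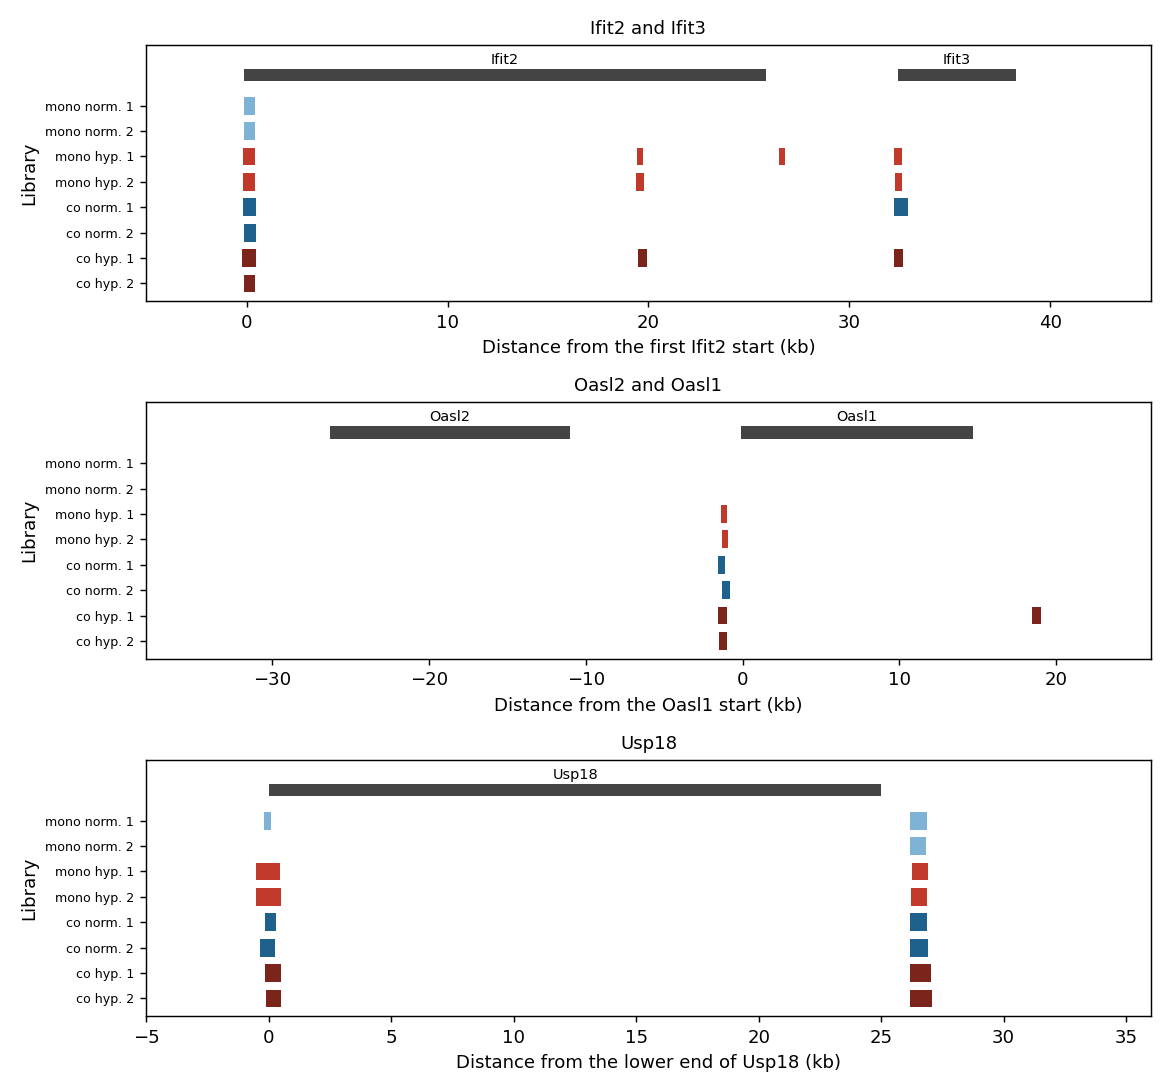
Peaks of each library (coloured bars, 1 line per library) along Ifit2 and Ifit3, Oasl2 and Oasl1, and Usp18 (grey bars), with distance in kb from the first Ifit2 start, the Oasl1 start and the lower end of Usp18. Peaks at the Ifit2 start and beyond the upper end of Usp18 recur in all 8 libraries, and those in the Ifit2 body, at the Ifit3 start and upstream of Oasl1 are absent from both normoxic monocultures.

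Isg15 encodes a ubiquitin-like protein that is attached to other proteins during the antiviral response, and Usp18 encodes the protease that removes it and also restrains the interferon receptor. The Isg15 gene (chr4:156199424-156200818) had no peak over its body or start. The strong region within 10 kb (chr4:156197484-156198185) lay at the start of the neighbouring gene Agrn, with summits 2789 to 3155 bases past the Isg15 start. It held 28 and 29 summit fragments in normoxic monoculture, 85 and 75 in hypoxic monoculture, 63 and 91 in normoxic co-culture, and 122 and 96 in hypoxic co-culture. Both normoxic monocultures, also the shallowest libraries, were lowest, and the other groups overlapped.

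On the shared ranks the Agrn start stood at 56.0 and 56.5, 83.2 and 70.0, 71.0 and 80.2, and 86.3 and 77.9 in the same order. Hypoxia was 13.5 points higher (20.4 in monoculture, 6.51 in co-culture, pooled SD 6.41; exact permutation p = 0.111, adjusted p = 0.313). Co-culture was 12.4 points higher (exact permutation p = 0.111, adjusted p = 0.305). Ranked by fold, the 2 differences were 6.45 points for oxygen (exact permutation p = 0.5) and 4.55 for culture (exact permutation p = 0.722). No region could pass 0.05 in this design, where the smallest p is 0.0556, and neither difference reached that p. Since the region starts another gene, its values cannot be assigned to Isg15. On the other side of Isg15 a region at the start of the long noncoding RNA gene AW011738 and the lower end of Perm1 (chr4:156203073-156203515) was called in normoxic co-culture replicate 2 alone, at 29.5.

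Usp18 (chr6:121245906-121270917) had a region at each end, and without a listed strand its start could not be placed. The lower-end region (chr6:121245370-121246402) held 18 summit fragments in normoxic monoculture replicate 1, 40 and 26 in hypoxic monoculture, 25 and 50 in normoxic co-culture and 49 and 31 in hypoxic co-culture, and was missing from normoxic monoculture replicate 2. Its within-list percentiles ran from 40.2 to 83.8, with replicates as far apart as 46.1 and 83.8 in normoxic co-culture. The 18 fragments of normoxic monoculture replicate 1 lay below those of every other library with this peak, and the other 3 groups overlapped. That library also had the lowest background coverage (0.758), and the fragments are not scaled for depth.

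The region beyond the upper end (chr6:121272067-121272977, over the long noncoding RNA gene Gm44148) was called in all 8 libraries. Its shared ranks were 38.5 and 43.9 in normoxic monoculture, 7.81 and 6.65 in hypoxic monoculture, 5.49 and 36.2 in normoxic co-culture and 35.8 and 25.3 in hypoxic co-culture. Co-culture minus monoculture was -20.3 points in normoxia and 23.3 points in hypoxia, without overlap at either oxygen level, a pattern that 4.88% of the shared regions had. The test of that difference, chosen after the ranks had been seen, gave p = 0.0556 (exact permutation of culture labels within oxygen level, the smallest possible) and an adjusted p of 0.919. With oxygen labels permuted within culture, the same difference gave an exact permutation p of 0.167 and an adjusted p of 0.935. Averaged over cultures, hypoxia differed by -12.1 points (exact permutation p = 0.222, adjusted p = 0.445), with -4.52 points without co-culture normoxia replicate 2 and -20.0 without co-culture normoxia replicate 1. Averaged over oxygen levels co-culture differed by 1.5 points (exact permutation p = 1), with a sign that turned to -5.99 when ranked by fold and a range of -6.04 to 9.35 with a library left out.

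Oasl1 and Oasl2 encode relatives of the oligoadenylate synthetases, and Oasl1 is known to restrain translation of Irf7. A single region between them (chr5:114921642-114922407) reached to within 1 kb of the Oasl1 start, with summits at -1286 to -1142 bases from it, and lay over the start of the long noncoding RNA gene Gm13822. It was absent from both normoxic monocultures and present in the other 6 libraries with 33 and 20 summit fragments in hypoxic monoculture, 15 and 18 in normoxic co-culture and 35 and 27 in hypoxic co-culture. Its percentiles were 61.6 and 26.8, 18.0 and 30.0, and 52.4 and 41.8, and it was in 1 equal-number list. Which of the 3 genes it belongs to cannot be told from these lists. A region downstream of Oasl1 (chr5:114941692-114942244) was called in hypoxic co-culture replicate 1 alone, at 43.5.

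Ddx58 encodes RIG-I, the cytosolic sensor of viral RNA, and is the 1 sensor in the set. Of its 4 regions, 1 in the gene body (chr4:40233113-40233619) was called in both hypoxic monocultures at 32.4 and 46.0, in normoxic co-culture replicate 2 at 18.7 and in hypoxic co-culture replicate 1 at 9.09. The start region (chr4:40239104-40239810) was called in hypoxic co-culture replicate 2 alone, at 4.39. A region upstream (chr4:40244174-40244704) was called in normoxic monoculture replicate 2 at 28.8 and hypoxic monoculture replicate 1 at 45.9, and another body region (chr4:40218100-40218613) in normoxic co-culture replicate 1 at 3.41. Replicates disagreed on 3 of the 4 regions in every group that had them.

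Rsad2 encodes viperin, an enzyme that makes a chain-terminating nucleotide. It had 1 region, beyond the downstream end of the gene (chr12:26439381-26439951), called in replicate 1 of hypoxic monoculture at 30.2 and replicate 1 of hypoxic co-culture at 21.9. Mx1, a dynamin-like GTPase active against influenza viruses, had no peak within 10 kb (chr16:97447035-97462906) in any library. This annotation lists Mx1 as a transcribed pseudogene. Its nearest region, 15230 bp away inside Bace2 (chr16:97431391-97431805), was called in hypoxic monoculture replicate 2 and hypoxic co-culture replicate 1 at 45.7 to 56.7.

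Gained regions of a contrast were those with a peak in every library of the first group and in none of the second, and lost regions were the reverse. With 2 libraries against 2, an exact test of presence cannot go below p = 0.333, so these are counts. Hypoxia in monoculture gained 4 of the 15 member regions, the Ifit2 body, the Ifit3 start, the Oasl1 upstream region and the Ddx58 body region, and lost 0. The share gained was 26.7%, against 17.7% of all 40784 regions gained and 0.179% lost, and a count of 4 does not set the members apart from that share. Co-culture in normoxia gained 1 member region, the one upstream of Oasl1, against 12.5% of all regions gained and 0.181% lost.

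The remaining contrasts held no member region in either direction. For hypoxia in co-culture 6.09% of all regions were gained and 2.05% lost. For co-culture in hypoxia 5.83% were gained and 3.76% lost. For hypoxia in both cultures together, 4 libraries against 4, 2.08% were gained and 0.0196% lost, and for co-culture at both oxygen levels 1.98% were gained and 0.027% lost. On the shared ranks, co-culture was higher at the smallest p in 11.2% of regions and lower in 12.2%, with 0 of the 3 member regions among them. The lowest adjusted p over all shared regions was 0.233 for oxygen and 0.237 for culture.

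Of the 4 regions gained by hypoxia in monoculture, the Ifit2 body region was the 1 gained in equal-number lists too, where 7.39% of regions were gained and 5.15% lost. The member regions lost there were the Ifit2 start and the region beyond Usp18. In these lists 7 member regions appeared at all, and the Ifit3 start and the Ddx58 body region were not among them.

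Other genes of the pathway were read in the same way from 2 lists. In a wider list of 51 interferon-stimulated genes, the number with a peak within 10 kb was 26 and 21 in normoxic monoculture, 35 and 38 in hypoxic monoculture, 40 and 36 in normoxic co-culture, and 43 and 34 in hypoxic co-culture. Over all protein-coding genes the share was 35.8% to 42.8% in normoxic monoculture and 57.5% to 64.5% in the other libraries, also lowest in normoxic monoculture. In equal-number lists the number for the wider list ran from 18 to 23 with no group apart. The share over all protein-coding genes was 32.1% to 43.4% there. Hypoxia in monoculture gained 17 of the 93 regions near this list (18.3%, against 17.7% of all regions) and lost 0. Hypoxia in co-culture gained 2 and lost 2 (2.15% each, against 6.09% and 2.05%). Co-culture in normoxia gained 11 (11.8%, against 12.5%) and lost 1 (1.08%, against 0.181%). Co-culture in hypoxia gained 7 (7.53%, against 5.83%) and lost 3 (3.23%, against 3.76%).

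Co-culture at both oxygen levels gained 3 regions of the wider list (3.23%), and all 3 are named. They lay near Ifit1bl1, Ifit1bl2 and Ifit3b, relatives of the Ifit members (chr19:34607316-34608162, percentiles 10.2 to 39.4 in the 4 co-cultures), near Ifi35 (chr11:101448230-101448772, 25.6 to 61.7) and near Lgals3bp, a secreted glycoprotein gene (chr11:118401557-118402290, 26.9 to 65.8). The share of all regions gained there was 1.98%. Glial and glioma markers with a peak numbered 0 to 3 in the monocultures and 3 to 8 in the co-cultures, and 0 or 1 in every equal-number list, and their part in this contrast was not tested.

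The 23 genes of interferon signalling, from the receptor chains Ifnar1 and Ifnar2 to the sensors' adaptors, had a peak in most libraries. The number with a peak within 10 kb was 17 and 14 in normoxic monoculture, 23 and 23 in hypoxic monoculture, 23 and 23 in normoxic co-culture, and 23 and 21 in hypoxic co-culture, beside 35.8% to 42.8% of all protein-coding genes in normoxic monoculture and 57.5% to 64.5% elsewhere. In equal-number lists the numbers were 13 and 14, 12 and 11, 15 and 14, and 16 and 16, with hypoxic monoculture lowest, as it also was over all protein-coding genes (34.2% and 32.1%, against 35.8% to 43.4% in the other libraries). Of examples chosen after their values were seen, Ifnar1, Ifnar2, Jak1 and Tyk2 had one in all 8 libraries, Stat2 and Irf9 in 7, and Irf5, Irf7, Irf8, Socs1 and Tbk1 in 6. Within 1 kb of a start the number was 10 to 12 in normoxic monoculture and 17 to 20 elsewhere. Of the 74 regions near this list, hypoxia in monoculture gained 9 (12.2%, against 17.7% of all regions), hypoxia in co-culture gained 4 (5.41%, against 6.09%) and co-culture in normoxia gained 7 (9.46%, against 12.5%). Co-culture in hypoxia gained 1 and lost 1 (1.35% each, against 5.83% and 3.76%). No region of this list was gained or lost in both cultures by hypoxia or at both oxygen levels by co-culture.

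The mean of the members' best percentile within 10 kb, with 0 where no peak was called, was 16.7 and 20.6 in normoxic monoculture, 46.9 and 30.5 in hypoxic monoculture, 26.2 and 33.1 in normoxic co-culture, and 37.0 and 28.0 in hypoxic co-culture. Of the wider list the 3 genes with the most similar profile were Gbp2 (Pearson r = 0.844), Samd9l (r = 0.833) and Samhd1 (r = 0.829) over the 8 libraries. The same member mean followed the number of peaks per list with r = 0.751, so list length moves with the likeness. Samd9l had a peak in 2 libraries, and its r rests on 0 in the other 6. Samhd1, which encodes an enzyme that breaks down deoxynucleoside triphosphates, ranked at 0 and 24.5 in normoxic monoculture, 95.0 and 95.8 in hypoxic monoculture, 53.2 and 83.3 in normoxic co-culture, and 89.3 and 86.5 in hypoxic co-culture.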

How the data were processed

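The submitters deposited 1 narrowPeak list per library for 8 ATAC-seq libraries, so the authors called peaks per library. Their processing notes name Trimmomatic 0.36, HISAT2 2.1.0, Picard, SAMtools, deepTools, MACS2 2.1.1.2 and build mm10. Which settings, filters or Tn5 shift were used is not given in the sources used here. The deposited −log10 p-value ranks peaks within a list. The deposited −log10 q-value was at least 2 in every list, as with a q of 0.01, and was used for a stricter list (at least 5). The deposited fold is a ratio of summit to local background, the deposited score repeats the q-value and was not analysed, and the deposited summit offset places the summit. Tests between libraries used ranks over shared regions. Within-list percentiles and summit fragments are given per library as descriptions, not scaled for list length or depth.

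Overlapping peaks (1 bp or more) from all lists were joined into regions. Genes came from RefSeq (GRCm38.p6), matched by symbol or synonym, 10 of 10 members. Depth was recovered by solving the deposited fold, taken as (n + 1)/(b + 1), and the Poisson p-value for a whole n, which returned 99.8% to 99.9% of peaks to within 0.001. The fragments so obtained rest on that assumed form. They carry counting error and differences between libraries, such as 25 and 50 at the lower end of Usp18 in normoxic co-culture. Two-sided exact permutation tests used percentile ranks over the shared regions, with labels permuted within the other factor and Benjamini-Hochberg adjustment over all of them. The rank test and the recovery of fragments were tested on simulated data. Where nothing shows that replicates came from separate cultures beyond the word biological, p-values measure the spread between these libraries.

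All members are named, each with its start region and any region gained or lost. Of the wider list, the regions gained or lost 4 against 4 and the 3 most similar profiles are named. The members and lists were chosen with earlier results of these data known. Alternatives were equal-number lists, a stricter q, windows of 0, 5 and 20 kb, summits only, no peaks wider than 10 kb, ranking by fold, a replicate block and leaving out each library. Python 3.11.15, numpy 2.4.6, pandas 2.3.3, scipy 1.17.1 and matplotlib 3.10.9 were used.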

Additional observations from a re-analysis of the deposited data

Results flagged for a closer look

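The region beyond the upper end of Usp18 had opposite culture differences at the 2 oxygen levels in every library. In shared ranks, co-culture minus monoculture was -20.3 points in normoxia and 23.3 in hypoxia, 43.6 points apart. The exact permutation test of this difference, chosen after the ranks had been seen, gave p = 0.0556, the smallest possible, with culture labels permuted within oxygen level, and p = 0.167 with oxygen labels permuted within culture. The adjusted p over the shared regions was 0.919 and 0.935. The 2 normoxic co-culture libraries stood far apart, at 5.49 and 36.2.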

How the results depend on the processing

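Over 22 results and 328 alternative values, 290 were classed as the same, 32 as moved and 6 as changed in sign. The same meant an equal or near count, a gene count difference moved by less than the pooled SD, or a rank difference of unchanged sign. Some alternatives could hardly change a value, such as leaving out a library outside a contrast. The 290 are therefore no measure of robustness. In equal-number lists the oxygen difference in member genes with a peak became -0.25 and the culture difference -1.25, hypoxia in monoculture gained 1 region and lost 2, hypoxia in co-culture lost 1, hypoxia in both cultures lost 1, co-culture in normoxia gained 0, and co-culture in hypoxia gained 1 and lost 1. Counting gene bodies only gave an oxygen difference of 1.25 and 0 regions gained by co-culture in normoxia. A 20 kb window gave a culture difference of 2.75, 1 region gained by co-culture at both oxygen levels, 2 by co-culture in normoxia, 3 by co-culture in hypoxia and 1 by hypoxia in co-culture.

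Leaving out single libraries gave oxygen differences of 1.75 to 2.75 and culture differences of 0.75 to 1.75. It gave 4 to 6 regions gained by hypoxia in monoculture. Hypoxia in co-culture gained 0 to 3 and lost 0 to 1, and co-culture in normoxia gained 1 to 3 and lost 0 to 1. Co-culture in hypoxia gained 0 to 1 and lost 0 to 3. Hypoxia in both cultures gained 0 to 1 (1 without co-culture hypoxia replicate 2). A gained or lost call needs fewer libraries when a library is left out, so these region counts could rise but hardly fall. Member regions at the smallest rank p numbered 0 to 1 for oxygen (0 without monoculture hypoxia replicate 1 or replicate 2) and 0 to 1 for culture, with 1 for culture at a −log10 q of at least 5. The culture difference of the region beyond Usp18 was -5.99 when ranked by fold, and lay between -6.04 and 9.35 with a library left out. It was negative at -6.04 when co-culture normoxia replicate 2 was left out, at -0.939 for co-culture hypoxia replicate 1, and at -0.176 for monoculture normoxia replicate 1. The cause of these changes was not tested.

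The labels do not say what a replicate number marks. Deviations of same-numbered libraries correlated over 0.1 in 1 of 6 pairs of groups (0.196 for the co-cultures, -0.0299 to 0.0476 otherwise, over 6375 regions), so the numbers were not taken as pairs. With the replicate block the gene count differences stayed at 2.25 and 1.25, and the smallest rank p, now 0.125 over 16 relabellings, was reached by 1 member region for oxygen (34.6% of all shared regions) and 2 for culture (33.5% of all). Recovered background coverage ran from 0.758 to 1.45 fragments per position, and a peak below the caller's threshold at that depth was not detectable.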
